A study of Mus musculus with 2 samples.

Results

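The 10 core pluripotency genes described here are Pou5f1, Sox2, Sall4, Zfp42, Dppa2, Dppa3, Dppa4, Dppa5a, Fbxo15 and Tdgf1. They were taken from the deposited table by their symbols, as general markers of stem cell identity outside the naive network, and all 10 were found among its 18888 genes. The table compares PB mESCs, 46C mouse embryonic stem cells that carry the empty PiggyBac vector, with PB-TERRA mESCs, the same line with a PiggyBac vector that expresses polyadenylated TERRA, the RNA made from telomeric repeats. 46C is a mouse ESC line with a green fluorescent reporter at Sox1, and both cultures were grown on gelatin in conventional mouse ESC medium, at passages 21 to 24. The promoter of the vector, and whether each culture was a pool or a clone, are not given in the sources used here. TERRA itself was not analysed here.

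Total RNA of each condition was sequenced as 1 library, so no spread between cultures can be estimated and no test between the conditions was possible. Levels are given as FPKM, which corrects the fragments of a gene for its length and for the size of the library. Ratios are the log2 ratio of FPKM + 0.1, PB-TERRA over PB, and for low genes this scale understates the difference. Reads per gene are estimates from its FPKM, its length and fitted totals of 24750000 reads in PB and 24840000 reads in PB-TERRA. The 95% intervals come from these reads and cover counting error only, not the variation between cultures. A gene whose interval does not include 0 differs between these libraries beyond counting error, which need not hold between the conditions. In a bulk culture, fewer cells that express a gene and less of its RNA per cell cannot be told apart.

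The core genes mark ESCs, cells able to form every lineage of the embryo, and some of them, such as Pou5f1 and Sox2, are needed to keep that state, while others, such as Fbxo15 and Zfp42, are markers that ESCs can do without. OCT4, the POU-family factor encoded by Pou5f1, and SOX2, a factor with an HMG box, bind DNA side by side at enhancers of many ESC genes, among them their own. SALL4, a zinc finger protein, works with them and recruits the NuRD complex of histone deacetylases and remodelers, and REX1, the product of Zfp42, is a zinc finger protein derived from the YY1 family. DPPA2 and DPPA4 are partner proteins with SAP domains that bind chromatin at CpG-rich promoters, and they are needed for the genes of the 2-cell-like state. DPPA3, also called STELLA, protects DNA methylation in the early embryo, and DPPA5A is a KH-domain protein that binds RNA. FBXO15 is an F-box protein whose gene is a classical target of OCT4 and SOX2, and TDGF1, also called Cripto, is a membrane-bound co-receptor for Nodal.

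RefSeq promoters, from 250 bases before to 50 bases after a start site on GRCm38.p6, were matched for 4 of the 10 genes. The promoters of Zfp42, Sox2 and Pou5f1 are shown because OCT4 and SOX2 act on these genes themselves. Capitals mark the octamer ATGCAAAT, to which POU factors bind, the SOX core ACAAAG and the GC box GGGCGG, each searched on both strands. The lines give the promoters 5′ to 3′ on the strand of the gene, chr8:43306960-43307259 on the - strand for Zfp42, chr3:34649745-34650044 on the + strand for Sox2 and chr17:35505782-35506081 on the + strand for Pou5f1.
Zfp42: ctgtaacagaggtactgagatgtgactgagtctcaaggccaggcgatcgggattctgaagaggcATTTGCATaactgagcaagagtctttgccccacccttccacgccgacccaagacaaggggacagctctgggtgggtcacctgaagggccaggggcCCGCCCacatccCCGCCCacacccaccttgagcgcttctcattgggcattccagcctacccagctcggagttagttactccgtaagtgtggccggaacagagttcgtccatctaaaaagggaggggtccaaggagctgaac
Sox2: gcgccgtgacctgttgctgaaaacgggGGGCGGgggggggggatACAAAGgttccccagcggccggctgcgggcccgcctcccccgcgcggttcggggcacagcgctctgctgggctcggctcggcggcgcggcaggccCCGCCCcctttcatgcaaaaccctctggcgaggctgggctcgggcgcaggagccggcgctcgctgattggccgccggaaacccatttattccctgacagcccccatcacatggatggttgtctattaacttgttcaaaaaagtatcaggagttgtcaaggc
Pou5f1: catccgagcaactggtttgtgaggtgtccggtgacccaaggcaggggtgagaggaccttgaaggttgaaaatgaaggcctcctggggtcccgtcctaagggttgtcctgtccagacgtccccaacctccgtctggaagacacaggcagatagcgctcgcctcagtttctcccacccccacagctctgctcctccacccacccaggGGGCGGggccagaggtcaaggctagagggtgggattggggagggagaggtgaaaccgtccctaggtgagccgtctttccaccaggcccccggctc
Zfp42 has 1 octamer, on the strand opposite to the gene, which begins 186 bases before the start site. The octamer is present in 1.74% of the 32851 promoters of this length, and in none of the other 4 matched promoters of the core genes, of which Pou5f1 has 2. Sox2 has 1 SOX core, as do 18.7% of promoters, and 2 GC boxes. Zfp42 also has 2 GC boxes, while Tdgf1 and the Pou5f1 promoter shown have 1 each, and 35.7% of all promoters hold at least 1. A match is a description of letters and not a binding site.

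All core genes were expressed in both libraries (plot of levels). Dppa5a had the highest level, 1162.50 FPKM in PB and 1039.92 FPKM in PB-TERRA. Pou5f1 was next, with 744.67 and 773.31 FPKM, above 99.2% of the 12263 genes with at least 1 FPKM in 1 library or both. Dppa5a and Pou5f1 together made up 67.8% of the summed FPKM of the core genes in PB and 66.8% in PB-TERRA. Tdgf1, Zfp42 and Sox2 followed with more than 100 FPKM, and Dppa4, Dppa2, Sall4 and Fbxo15 lay from 49.05 to 85.50 FPKM over both libraries. Dppa3, whose expression in ESC cultures is known to be uneven from cell to cell, was far lower, at 5.79 FPKM in PB and 7.53 FPKM in PB-TERRA. The ratio of its nearest neighbour in this order, Fbxo15, to Dppa3 was 9.62 in PB and 6.51 in PB-TERRA. The labels call the cells embryonic stem cells, and the levels of Pou5f1, Sox2 and Zfp42 go with that label.

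**Figure D1:**
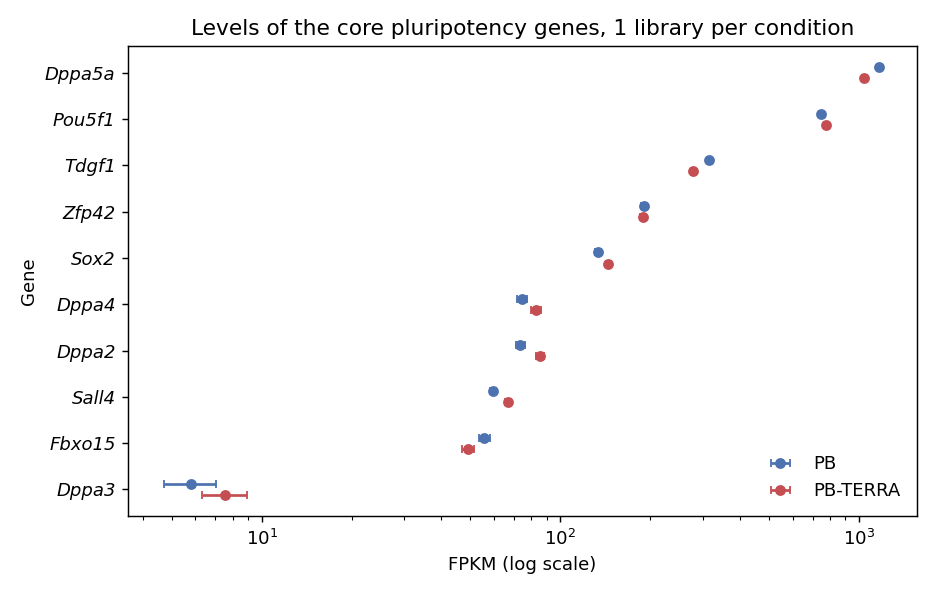
Levels of the 10 core pluripotency genes in FPKM on a log scale, in PB (blue) and PB-TERRA (red), 1 library each; bars are exact Poisson 95% intervals for counting error. The order is the same in both libraries except for Dppa2 and Dppa4, and the highest and lowest genes in PB lie at 1162.50 and 5.79 FPKM.

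The order of the levels was the same in both libraries apart from 1 exchange. Dppa4 stood above Dppa2 in PB (74.29 and 73.46 FPKM), and Dppa2 above Dppa4 in PB-TERRA (85.50 and 82.97 FPKM). Within each library this pair did not differ beyond counting error, with an interval of the log2 ratio of their levels from -0.06 to 0.09 in PB and from -0.03 to 0.11 in PB-TERRA. The other 8 pairs of neighbours in each library differed beyond counting error. The closest of these was Sall4 over Fbxo15 in PB (log2 ratio of levels 0.10, 95% interval 0.03 to 0.17), which stood further apart in PB-TERRA (0.45, 95% interval 0.37 to 0.52).

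No core gene reached a log2 ratio of 1 in either direction (0 of 10), a size that 0.913% of the 12263 genes past the filter reached. None reached 0.5 either (0 of 10), as 4.67% of those genes did, although Dppa3 had 0.50 when scaled to Rpl19 and Rplp0. The largest fold between the libraries was 1.30, for Dppa3. Of the 10 genes, 6 were higher and 4 lower in PB-TERRA, with a median log2 ratio of 0.08, while 48.6% of all genes past the filter were higher, 50.9% were lower and their median was -0.0044. With both libraries rescaled to the same summed FPKM, 7 core genes and 58.7% of all genes were higher, and scaled to Rpl19 and Rplp0, a pair of ribosomal protein genes, 7 core genes and 78.0% of all genes were. The counting interval lay above 0 for 5 core genes, against 18.1% of all genes past the filter, and below 0 for 3, against 17.6%, which makes 35.7% on either side. Abundant genes have narrow intervals, so the 1734 genes whose mean was 50 FPKM or more are the closer background. Of these, 0.231% reached a log2 ratio of 1 and 1.27% one of 0.5 in either direction, 46.9% were higher and 53.1% lower, and the interval lay above 0 for 27.0%, below 0 for 31.9% and on either side for 58.9%, against 5, 3 and 8 of the 9 core genes at that level.

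**Figure D2:**
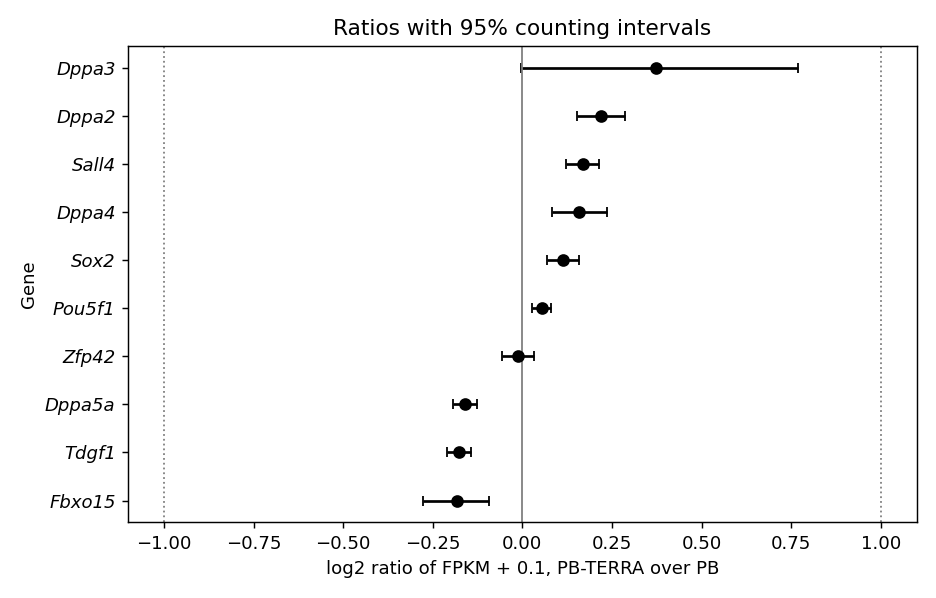
Log2 ratio of FPKM + 0.1, PB-TERRA over PB, for each core pluripotency gene; bars are exact 95% intervals of the read ratio for counting error, and dotted lines mark the threshold of 1. Dppa2, Sall4, Dppa4, Sox2 and Pou5f1 lie above 0, Dppa5a, Tdgf1 and Fbxo15 lie below 0, and the intervals of Dppa3 and Zfp42 include 0 on this scaling.

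Among the transcription factors, Pou5f1 had about 22817 reads in PB and 23781 in PB-TERRA. Its log2 ratio was 0.05 (95% interval 0.03 to 0.08), a level 3.85% higher in the PB-TERRA library. Sox2 had 133.91 FPKM in PB against 144.88 FPKM in PB-TERRA, so that its log2 ratio was 0.11 (95% interval 0.07 to 0.16). Both members of this partner pair were thus slightly higher in PB-TERRA, and Sox2 by more. The log2 ratio of Sox2 exceeded that of Pou5f1 by 0.06 (95% interval 0.0077 to 0.11), a difference that does not depend on the scaling between libraries. The ratio of the Pou5f1 level to the Sox2 level was 5.56 in PB and 5.34 in PB-TERRA.

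Sall4 had 59.58 FPKM in PB and 66.95 FPKM in PB-TERRA, with a log2 ratio of 0.17 (95% interval 0.12 to 0.21). Zfp42 had 189.98 FPKM in PB and 188.41 FPKM in PB-TERRA. Its log2 ratio was -0.01, and the interval from -0.06 to 0.03 included 0. Zfp42 is the gene whose direction depended on the scaling. Its log2 ratio turned positive under 3 alternatives, 0.03 with both libraries rescaled to the same summed FPKM, 0.12 when scaled to Rpl19 and Rplp0, and 0.04 with the trend of gene length removed.

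Dppa2 and Dppa4, whose genes lie next to each other on the chromosome, were both higher in PB-TERRA. Dppa2 had 73.46 and 85.50 FPKM (log2 ratio 0.22, 95% interval 0.15 to 0.29), and it was 16.4% higher. Dppa4 had 74.29 and 82.97 FPKM (log2 ratio 0.16, 95% interval 0.08 to 0.24). Their log2 ratios differed by 0.06 (95% interval -0.04 to 0.16), which was within counting error. Of the 1000 genes nearest to Dppa2 in mean FPKM, 8.60% lay at least as far from 0. The same share was 19.4% for Dppa4.

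Dppa3 had the largest log2 ratio of the core genes, 0.37, and the fewest reads, about 101 in PB and 132 in PB-TERRA. Its interval, from -0.0038 to 0.77, included 0, so a difference of Dppa3 could not be detected with these reads. The lower end lay so near 0 that the interval moved above 0 under 4 of the alternatives, those centred on the median of the genes past the filter, rescaled to the same summed FPKM, scaled to Rpl19 and Rplp0, and corrected for gene length. The other alternatives left the interval of Dppa3 across 0. Dppa5a, the most abundant core gene, changed by -10.5% between PB and PB-TERRA (log2 ratio -0.16, 95% interval -0.19 to -0.13), with about 15335 and 13768 reads. Among the DPPA genes, which share a name for their expression in pluripotent cells and are not all related in sequence, Dppa5a alone was lower in PB-TERRA.

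Tdgf1 had 314.06 FPKM in PB against 277.83 FPKM in PB-TERRA, and its log2 ratio was -0.18 (95% interval -0.21 to -0.14). Fbxo15 had 55.71 and 49.05 FPKM, also a log2 ratio of -0.18 (95% interval -0.28 to -0.09). Scaled to Rpl19 and Rplp0, the log2 ratio of Tdgf1 was -0.05 with an interval still below 0, and Fbxo15 (-0.05) and Dppa5a (-0.03) had intervals that included 0. Dppa5a, Tdgf1 and Fbxo15 thus stood together at nearly the same ratio, and no pair of these 3 differed from each other beyond counting error. The level of Dppa2 relative to Tdgf1 was 1.32 times higher in PB-TERRA (difference of log2 ratios 0.40, 95% interval 0.32 to 0.47). Of the 45 pairs of core genes, 32 differed in their log2 ratios beyond counting error, a comparison that is free of the scaling between libraries. Among the 9 core genes of at least 50 FPKM these were 28 of 36 pairs (77.8%), against 60.8% of all pairs of the 1734 genes at that level, and pairs that share a gene are not independent.

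Summed over the core genes, the level was 2813.95 FPKM in PB and 2716.35 FPKM in PB-TERRA, or 0.566% and 0.560% of the FPKM of all genes. The log2 ratio of this sum was -0.05, and without Dppa5a it was 0.02. Weighted by reads instead, the core genes held 84052 reads in PB against 84080 in PB-TERRA, with a log2 ratio of -0.0048 (95% interval -0.02 to 0.0091). On the values as reported, the differences between single core genes thus nearly cancelled in the sum, and the sign of the FPKM sum turned on the most abundant gene. The log2 ratios of both sums depend on the scaling between libraries. Rescaling to the same summed FPKM shifts all genes up by 0.04, and scaling to Rpl19 and Rplp0 by 0.13, so this holds for the reported scaling only.

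**Figure D3:**
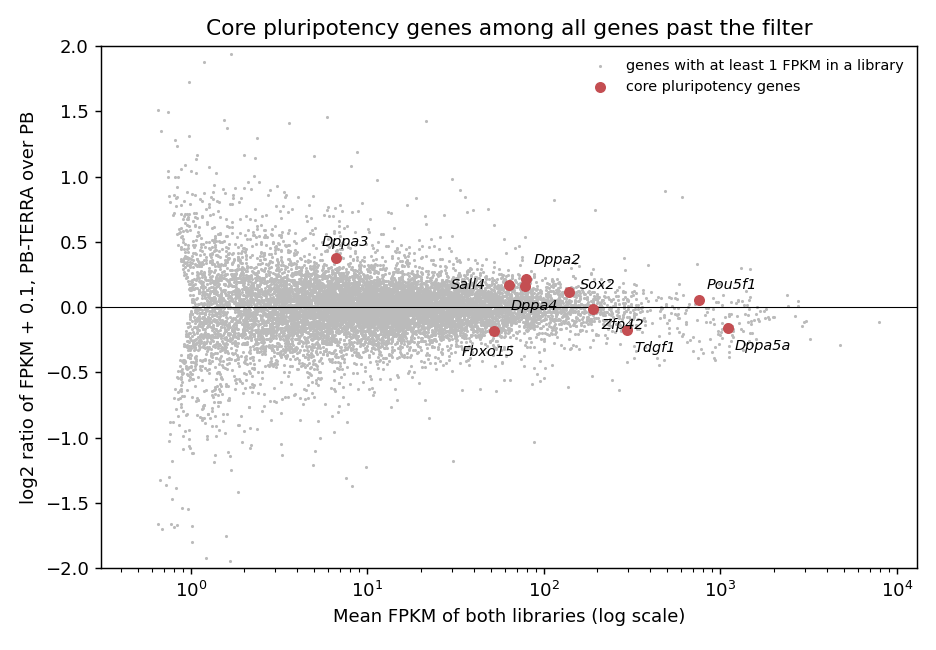
Log2 ratio of FPKM + 0.1, PB-TERRA over PB, against the mean FPKM of both libraries on a log scale, for the genes with at least 1 FPKM in a library (grey) and the core pluripotency genes (red); 34 genes lie beyond the vertical axis. The core genes sit within the cloud of genes of like level, from -0.18 for Fbxo15 to 0.37 for Dppa3.

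Among the 1000 genes nearest in mean FPKM to each, 96.8% had a lower log2 ratio than Dppa2, 96.1% than Dppa3 and 92.2% than Sall4. At the other end, 6.90% had a lower log2 ratio than Fbxo15, 10.7% than Tdgf1 and 13.5% than Dppa5a. For Pou5f1, 62.4% of the genes of like level lay at least as far from 0, and for Zfp42 92.0% did. The log2 ratio followed gene length across the table. Its median was -0.06 in the tenth of genes with the shortest length and 0.05 in that with the longest. Dppa5a is the shortest core gene (647 bases) and Sall4 the longest (5045 bases), and with the length trend removed their log2 ratios were -0.12 and 0.13. The part of gene length in these values was not tested further.

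Several core genes have close copies in the genome, and reads could be split between them by a counting step that the sources used here do not describe. Of the 50-base stretches in the GENCODE M21 transcripts of Dppa5a, 38.6% also occur in transcripts of other genes, and the share was 31.3% for Dppa4, 29.1% for Dppa2 and 16.5% for Dppa3. It was 8.86% for Tdgf1, 8.52% for Zfp42 and 0.561% for Pou5f1, and no stretch (0%) of Sox2, Sall4 or Fbxo15 was shared. The single values of the DPPA genes are the most uncertain on this account. The table holds 2 gene models predicted by the authors with the protein description of Dppa2, BGI_novel_G000433 and BGI_novel_G000046. BGI_novel_G000433 had 0.47 FPKM in PB and 0.68 FPKM in PB-TERRA, far below Dppa2 itself. BGI_novel_G000046 was listed at the floor of 0.01 FPKM in PB and at 0.06 FPKM in PB-TERRA.

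The nearest protein-coding genes past the filter on either side of each core gene were taken from RefSeq (GRCm38.p6), for their order along the chromosome, after the values had been seen. Dppa3 lies between Gdf3 and Nanog, which are themselves pluripotency genes. Gdf3, a TGF-beta family ligand, had 59.61 FPKM in PB and 63.93 FPKM in PB-TERRA (log2 ratio 0.10, 95% interval 0.03 to 0.17), and Nanog had 186.41 and 173.37 FPKM (-0.10, 95% interval -0.15 to -0.06). The neighbours of Dppa3 thus differed in direction from each other. Next to Dppa5a lies Ooep, which encodes a further KH-domain protein of oocytes and early embryos, with 25.22 FPKM in PB and 33.99 FPKM in PB-TERRA, and its log2 ratio was 0.43 (95% interval 0.29 to 0.58). The direction of Ooep was opposite to that of Dppa5a. On its other side lies Gm3776, with 2.67 FPKM in PB and 1.25 FPKM in PB-TERRA, and the interval of its log2 ratio, from -2.80 to 0.37, included 0. Next to Zfp42 lies Triml2, with 25.36 and 32.47 FPKM (log2 ratio 0.36), while Zfp42 itself hardly differed.

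**Figure D4:**
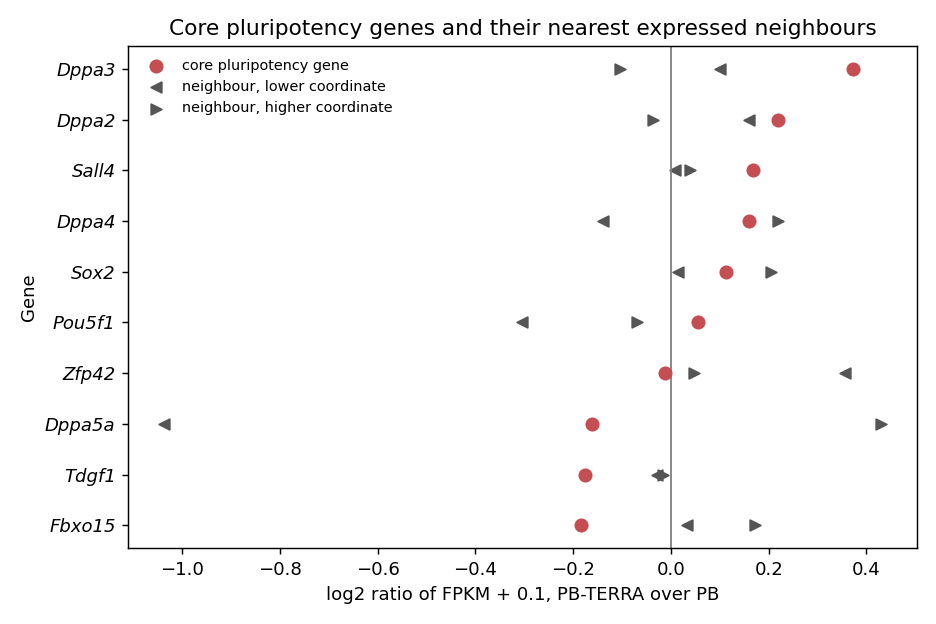
Log2 ratio of FPKM + 0.1, PB-TERRA over PB, for each core pluripotency gene (circle) and for its nearest protein-coding neighbours past the filter at the lower and higher coordinate (triangles). Dppa2 and Dppa4 are each other's neighbour, and Ooep, beside Dppa5a, lies at 0.43.

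The other genes of ESC identity were taken from a list that does not overlap the core genes. Of 23 such regulators, 22 passed the filter, 16 of them higher and 6 lower in PB-TERRA, with a median log2 ratio of 0.10. The interval lay above 0 for 11 and below 0 for 3, against 18.1% and 17.6% of all genes past the filter and 27.0% and 31.9% of the abundant ones. Ooep was the highest of them, and Terf1, which encodes the telomere-binding shelterin protein TRF1 and is abundant in ESCs, was the lowest, with 49.59 FPKM in PB and 43.47 FPKM in PB-TERRA (log2 ratio -0.19, 95% interval -0.27 to -0.11). Utf1, a chromatin protein gene driven by OCT4 and SOX2 and the most abundant of the list, was slightly lower, with 387.13 and 359.34 FPKM (log2 ratio -0.11). Among 5 classical targets of OCT4 and SOX2 outside the core, 1 was higher and 4 lower, where 48.6% and 50.9% of all genes past the filter were. The interval lay above 0 for 1 and below 0 for 3 of them, and that of Spp1, which encodes osteopontin, included 0 (log2 ratio -0.05, 95% interval -0.13 to 0.02). Fgf4, which encodes the main FGF ligand of ESCs, had 31.89 FPKM in PB and 37.13 FPKM in PB-TERRA (log2 ratio 0.22), and Lefty1, a Nodal antagonist, had 92.24 and 76.69 FPKM (log2 ratio -0.27).

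Of 9 surface and enzyme markers of ESCs, 8 passed the filter, 3 higher and 5 lower, with a median log2 ratio of -0.02. Pecam1, an adhesion molecule, was the highest (14.38 and 17.88 FPKM, log2 ratio 0.31), Podxl, a sialomucin, was the lowest (-0.16), and Cdh1, which encodes E-cadherin, was the most abundant (163.80 and 152.78 FPKM, log2 ratio -0.10). The naive transcription factors are those of the ground state of ESCs. Of 11, 8 were higher and 3 lower, and the interval lay above 0 for 6 and below 0 for 3, with a median of 0.14, and the range was wider than in the core genes, from -0.39 for Sp5 to 0.64 for Tbx3. Formative and primed markers, which mark cells on the way out of the naive state, had 3 of 11 higher and 8 lower, and the interval lay above 0 for 2 and below 0 for 7, with a median of -0.20. Of all genes past the filter, 48.6% were higher and 50.9% lower, and 18.1% and 17.6% had an interval above and below 0. Zic2 was the lowest of these (18.31 and 11.16 FPKM, log2 ratio -0.71), Sox3 the highest (1.29 and 1.93 FPKM, 0.55) and Dnmt3b, a de novo DNA methyltransferase gene, the most abundant (131.59 and 117.26 FPKM, -0.17). None of these 3 lists had a gene past the threshold of 1 (0 genes), which only 0.913% of all genes past the filter reached. The difference between the lists and the core genes was not tested.

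**Figure D5:**
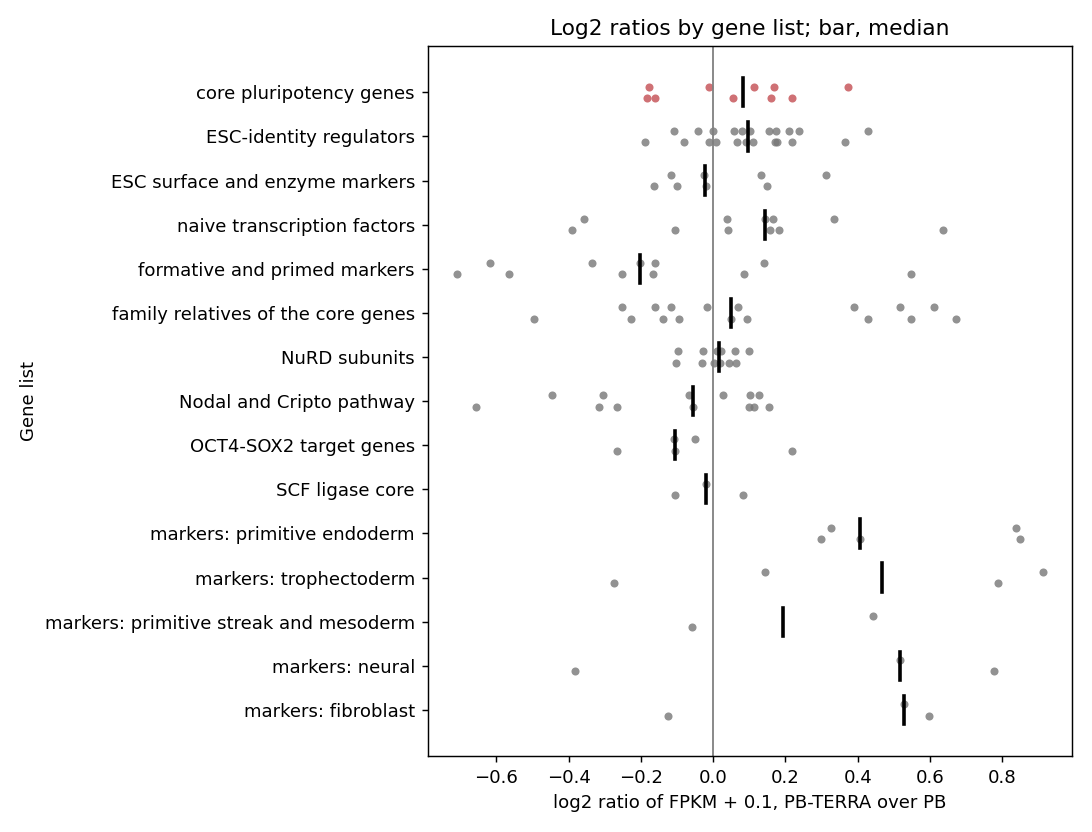
Each point is the log2 ratio (FPKM + 0.1, PB-TERRA over PB) of 1 gene past the filter, by gene list, with the core genes in red and a bar at the median. The core genes have a median of 0.08, the naive transcription factors of 0.14 and the formative and primed markers of -0.20, and points of the lists overlap.

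Partners of the core proteins were measured as well. Of the 12 NuRD subunits, through which SALL4 acts on chromatin, 8 were higher and 4 lower. Of all genes past the filter, 48.6% were higher and 50.9% lower. The subunits all lay between -0.10 for Mta3 and 0.10 for Hdac1. Cdk2ap1 was the most abundant (232.30 and 217.14 FPKM, log2 ratio -0.10). The interval lay above 0 for 2 of the 12 and below 0 for 2, and it included 0 for the other 8. It lay above and below 0 for 18.1% and 17.6% of all genes past the filter, and for 27.0% and 31.9% of the abundant ones. Of the SCF ligase core, which F-box proteins such as FBXO15 join, Skp1a had 211.76 and 196.67 FPKM (log2 ratio -0.11, 95% interval -0.16 to -0.06), and Rbx1 had 52.46 and 55.53 FPKM (0.08, 95% interval -0.0066 to 0.17). Of these 3 genes 1 was higher and 2 were lower, against the same 48.6% and 50.9% of all genes.

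TDGF1 serves the Nodal pathway, of which 14 of 15 listed genes are in the table and 13 passed the filter. Higher were 6 and lower 7 of them, where 48.6% and 50.9% of all genes past the filter were, with a median log2 ratio of -0.06. The interval lay above 0 for 3 and below 0 for 4. It did so for 18.1% and 17.6% of all genes past the filter, and for 27.0% and 31.9% of the abundant ones. Among the Nodal genes, Gdf1, which encodes a ligand of the pathway, was the lowest, with 5.97 FPKM in PB and 3.75 FPKM in PB-TERRA (log2 ratio -0.66, 95% interval -0.98 to -0.37). Lefty2, an inhibitor and target of the pathway and the most abundant of the list, had 129.08 and 94.65 FPKM (log2 ratio -0.45, 95% interval -0.50 to -0.40). Acvr1b, the type I receptor, was the highest (9.55 and 10.64 FPKM, log2 ratio 0.15). Nodal, the ligand that TDGF1 serves, had 31.22 FPKM in PB and 33.42 FPKM in PB-TERRA (log2 ratio 0.10, 95% interval -0.0029 to 0.20), and its interval included 0.

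Markers of other cell types were below all core genes but Dppa3 in both libraries, and Nes, Thy1, Krt7, Col1a1 and Eomes were above Dppa3 in PB. The summed FPKM of the primitive endoderm markers was 10.33 in PB and 14.18 in PB-TERRA, that of the trophectoderm markers 17.38 and 19.49, and that of the streak and mesoderm markers 6.29 and 6.27. Neural markers summed to 31.49 and 27.31 FPKM, most of it Nes, which had 27.30 and 20.93 FPKM and is also expressed in ESCs. Fibroblast markers summed to 19.13 and 22.77 FPKM, most of it from Col1a1 and Thy1. With no filter, 6 of 6 endoderm markers, 4 of 5 trophectoderm, 2 of 5 streak, 2 of 5 neural and 3 of 7 fibroblast markers were listed higher in PB-TERRA, where 47.6% of all genes in the table were. The highest log2 ratio past the filter was that of Hand1 in the trophectoderm list (1.36 and 2.65 FPKM, 0.91), of Neurod1 in the neural list (2.44 and 4.25 FPKM, 0.78) and of Col1a1 in the fibroblast list (7.99 and 12.14 FPKM, 0.60). In the endoderm and streak lists it was that of Pdgfra (0.51 and 1 FPKM, 0.85) and Kdr (0.79 and 1.11 FPKM, 0.44), which passed the filter through PB-TERRA alone, so that the filter fixed their direction. Gata6, an endoderm transcription factor gene that passed in both libraries, had 1.22 and 2.26 FPKM (log2 ratio 0.84, 95% interval 0.52 to 1.26). Of the other endoderm markers that passed in both libraries, Dab2 and Sox7 had an interval above 0, and that of Gata4 included 0. No trophectoderm or neural marker passed through 1 library alone. The interval lay above 0 for 2 and below 0 for 1 of 4 trophectoderm markers, and for 2 and 1 of 3 neural markers. Of all genes past the filter, 18.1% had an interval above 0 and 17.6% below. The part of these markers in the values of the core genes was not tested.

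Rpl19, the study's control for qRT-PCR of expression, and Rplp0, for which its primer list holds a pair, were both lower in PB-TERRA, Rpl19 with 1466.58 and 1405.13 FPKM (log2 ratio -0.06) and Rplp0 with 1575.34 and 1371.70 FPKM (-0.20). Scaled to these genes, the median of all genes moved up by 0.13, and 7 core genes had an interval above 0 and 1, Tdgf1, below 0, while 45.2% and 4.88% of all genes past the filter did on that scaling. Pou5f1 then had a log2 ratio of 0.19 in place of 0.05.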

How the data were processed

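Total RNA of the PB culture and of the PB-TERRA culture went into TruSeq libraries, 1 per condition, which were run on BGISEQ500. The authors deposited 1 table of 18888 genes with a gene length and 1 expression value per library, read here as FPKM from the values, rounded to 2 decimals with a floor of 0.01. HISAT, Cufflinks and mm9 are named in the submitters' processing notes, without roles, and the counting is not given in the sources used here. Columns with the authors' fold change, p-value, FDR and direction were not used.

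Low FPKM values of short genes came in steps of whole reads. With 114 bases taken off the length, a fitted value, 80.8% of 884 low genes in PB and 84.6% of 924 in PB-TERRA lay within 0.15 of a whole read. Values spread evenly would give 30%. The bases taken off and the library totals were chosen to bring these same genes near whole reads, so 30% is not the chance level of the fitted shares. The fit gave the library totals, and reads of all genes were estimated from them. Intervals are of the read ratio without pseudocount and are exact (Clopper-Pearson for ratios, Poisson for levels), except that differences between 2 log2 ratios have normal intervals.

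Ratios used a pseudocount of 0.1 FPKM, a filter of 1 FPKM in 1 library or both and a threshold of 1 on the log2 scale. The design names this comparison without a test, and the read estimates were tested on simulated data. The members and gene lists were chosen with earlier results of these data known. Named genes are the core genes, the highest, lowest and most abundant (by mean FPKM) of each list, Rpl19 and Rplp0. Neighbours, Gata6, Sox7, Spp1, Nodal and the predicted models were named after their values were seen. Alternatives were pseudocounts, filters, 4 scalings, gene length (50 bins), reads and a threshold of 0.5. Some genes are in more than 1 list. Computations ran in Python 3.11.15 with numpy 2.4.6, scipy 1.17.1 and pandas 2.3.3, and plots were drawn with matplotlib 3.10.9.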

Additional observations from a re-analysis of the deposited data

How the results depend on the processing

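With 1 library per condition, no library could be left out and no paired analysis was possible because each condition has 1 replicate. The count of core genes past the threshold stayed at 0 under all 10 alternatives at a threshold of 1, and at 0 with a threshold of 0.5 on the values as reported. Scaled to Rpl19 and Rplp0, Dppa3 had 0.50 and passed that lower threshold. The count of core genes higher in PB-TERRA was 6, or 7 with both libraries rescaled to the same summed FPKM, with scaling to Rpl19 and Rplp0 and with the length trend removed, each time by Zfp42. The median log2 ratio of the core genes, 0.08, was 0.21 when scaled to Rpl19 and Rplp0, a setting that shifts every gene by 0.13. Across the alternatives the log2 ratio of Pou5f1 ranged from 0.04 to 0.19, of Sox2 from 0.10 to 0.24 and of Tdgf1 from -0.19 to -0.05. The interval of Dppa3 lay above 0 under 4 alternatives. The count of core genes above 0 was thus 6 in place of 5 with centring, rescaling and the length correction. Of all genes past the filter, 18.8%, 25% and 18% lay above 0 under these settings, against 18.1% on the values as reported. Scaled to Rpl19 and Rplp0, the interval of Zfp42 also moved above 0. Under that setting 7 core genes lay above 0 and 1, in place of 3, below, where 45.2% and 4.88% of all genes did. Apart from Zfp42, no core gene changed sign under these alternatives. Dppa3 has the fewest reads of the core genes, so depth limits the statement on it more than those on the others. The lack of a second library limits all of these statements.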

Other observations

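Relatives of the core genes within the POU, SOX, SALL, YY1 and Cripto families were compared in the same way. Of 24 such genes, 17 passed the filter, of which 9 had a higher and 8 a lower level in PB-TERRA. Of all genes past the filter, 48.6% were higher and 50.9% lower. The median log2 ratio of the relatives was 0.05. None of them passed the threshold of 1 (0), which 0.913% of all genes past the filter reached. The interval lay above 0 for 8 and below 0 for 5, against 18.1% and 17.6% of all genes past the filter. Yy1, the parent gene of the REX1 family, had 48.55 FPKM in PB and 50.27 FPKM in PB-TERRA (log2 ratio 0.05, 95% interval -0.03 to 0.13). It was the most abundant of the list by the mean of both libraries, while Sall1 was above it in PB (50.41 FPKM). Yy2, a retrocopy of Yy1, had the highest log2 ratio, 0.67, from about 48 and 81 reads (95% interval 0.22 to 1.30). Pou6f1 had the lowest, -0.50, from about 134 and 92 reads (95% interval -0.95 to -0.15). Yy2 passed the filter through PB-TERRA alone and Pou6f1 through PB alone, so that the filter fixed the direction of both, and the counts above include them.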
